A study of Caenorhabditis elegans and Caenorhabditis briggsae and Caenorhabditis remanei with 48 samples.

Results

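The genes daf-21 and hsp-1 encode cytosolic chaperones, and their expression was followed here through the exit from L1 diapause, the arrest that newly hatched nematode larvae enter when they find no food. Both are present in C. elegans and, by their rows in the study's curated gene list, in its relatives C. briggsae, C. brenneri and C. remanei. They are 2 of the 23502 C. elegans coding sequences listed in either assay, with the identifiers CE05441 for daf-21 and CE09682 for hsp-1. They were chosen by name and not by a measured value, although earlier results of these data were known when they were chosen. Both also stand on lists that the study drew from these data, for high weights in RPF data and for conserved regulation. The rises of their footprints are therefore no independent finding. The identifier CE05441 carries the name daf-21 in the study's list of genes with high weights in a principal component analysis of RPF data and the name daf-2, the insulin receptor gene, in its curated list. It also stands among the study's identifiers for unfolded protein binding, a term for chaperones, and it is called daf-21 throughout.

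Cells keep both kinds of chaperone at work in unstressed conditions. hsp-1 encodes the constitutive cytosolic member of the HSP70 family (HSC70), which binds short hydrophobic stretches of polypeptides as they leave the ribosome or lose their fold, in cycles of ATP hydrolysis started by co-chaperones of the DnaJ family. daf-21 encodes cytosolic HSP90, now also named hsp-90, which receives partly folded clients from HSP70 and holds many kinases and receptors in a state ready for activation. In C. elegans, a mutation of daf-21 is known to cause dauer formation, a later larval arrest, and defects in chemosensation.

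Developing larvae were compared with diapause larvae in 4 wild-type strains: C. elegans N2, C. briggsae AF16, C. remanei PB4641 and C. brenneri PB2801. All larvae hatched without food and were starved for 24 h. The developing animals then fed on E. coli HB101 for 3 h, while the diapause animals were collected at the end of starvation. From each group, mRNA-seq measured mRNA abundance and ribosome profiling measured ribosome-protected footprints (RPFs), the short mRNA pieces covered by translating ribosomes. These were whole larvae, so fewer cells of a type and less RNA per cell cannot be told apart, and every value is relative to the other transcripts of the same library.

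Each species, state and assay had 3 libraries from separate biological batches, which gives 16 groups and 48 libraries. Per the study's methods, the starved and fed animals of a replicate came from the same batch of worms, so the states are paired. The 2 assays were likewise run on common samples. The deposited tables give 1 mean per state over the 3 libraries, so no spread between batches could be computed and no difference below carries a test or an error. The values are mean normalized reads per coding sequence, called signal here. They are not divided by length, so the levels of daf-21 and hsp-1 are not compared with each other. Summed signal per state and assay was between 6960110 and 22142600 normalized reads, and the read numbers of the single libraries, which the study summarises separately, were not used here. A change is the log2 ratio of the developing mean to the diapause mean, and a transcript counts as past the limit when it is more than 2-fold higher. The backgrounds are the 12115 C. elegans, 8481 C. briggsae, 10037 C. remanei and 13139 C. brenneri transcripts with a mean signal of at least 50 in both assays, called well expressed. Both genes lay far above that limit in every table.

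Footprints of daf-21 were several-fold more abundant in developing than in diapause larvae of every species, and its mRNA was higher by a smaller factor. In C. elegans, the RPF signal of daf-21 averaged 24984 in developing larvae and 2597 in diapause larvae, 9.62-fold higher and a log2 change of 3.27. C. briggsae larvae had 13605 when developing and 1913 in diapause, a change of 2.83. For C. remanei the RPF means were 29881 in developing and 3208 in diapause larvae, a change of 3.22. The smallest change was in C. brenneri, with 42726 in developing and 10248 in diapause larvae, 4.17-fold higher and 2.06 on the log2 scale. The median well-expressed transcript of C. briggsae had an RPF change of 0.14 and that of C. remanei 0.11. Relative to these, daf-21 changed by 2.69 in C. briggsae and by 3.11 in C. remanei. The footprints of daf-21 were thus past the 2-fold limit in 4 of 4 species, where the share of all well-expressed transcripts past it was 19.6% in C. elegans and 26.2% in C. briggsae, with 22.5% in C. remanei and 18.1% in C. brenneri. Between 96.1% and 98.5% of well-expressed transcripts had a smaller RPF change than daf-21.

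The mRNA of daf-21 was already plentiful in diapause. Its C. elegans signal was 30841 in developing larvae and 17271 in diapause larvae, 1.79-fold higher, a log2 change of 0.84. In C. briggsae it was 14835 in developing and 6157 in diapause larvae, a change of 1.27. The C. remanei means were 33927 in developing larvae and 14963 in diapause larvae, a change of 1.18. C. brenneri had 47189 in developing and 28117 in diapause larvae, a change of 0.75. The mRNA of daf-21 was past the 2-fold limit in 2 of 4 species, C. briggsae and C. remanei, against a background of 14.3% of transcripts in C. elegans and 15.4% in C. briggsae, with 14.6% in C. remanei and 8.72% in C. brenneri. Its change in C. remanei is near that limit: the median well-expressed transcript of that table had a change of 0.18, and relative to it the change of daf-21 mRNA was 1.00. Scaled to the summed signal of each state, it was 0.85.

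For hsp-1 the footprints were higher by about as much as those of daf-21, and the mRNA was higher by more. The C. elegans RPF signal of hsp-1 averaged 35736 in developing larvae and 4395 in diapause larvae, 8.13-fold higher and a log2 change of 3.02. C. briggsae had 19818 in developing and 2501 in diapause larvae, a change of 2.99. In C. remanei the means were 32914 in developing and 3962 in diapause larvae, a change of 3.05. C. brenneri again had the smallest RPF change of the 4 species, 1.92, with 66888 in developing and 17623 in diapause larvae. The footprints of hsp-1 were past 2-fold in 4 of 4 species, and 95.2% to 98.0% of well-expressed transcripts changed by less.

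The mRNA of hsp-1 moved with its footprints. In C. elegans it averaged 29877 in developing and 7945 in diapause larvae, 3.76-fold higher and a log2 change of 1.91. C. briggsae larvae had 18792 when developing and 3210 in diapause, 5.85-fold higher, a change of 2.55. The C. remanei values were 30392 in developing and 5386 in diapause larvae, a change of 2.50. For C. brenneri they were 32766 in developing larvae and 14400 in diapause larvae, a change of 1.19. In contrast to daf-21, the mRNA of hsp-1 was past 2-fold in 4 of 4 species, above 94.2% to 99.1% of well-expressed transcripts. Its C. brenneri change is near that limit: scaled to the summed signal of each state, it was 1.01.

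**Figure D1:**
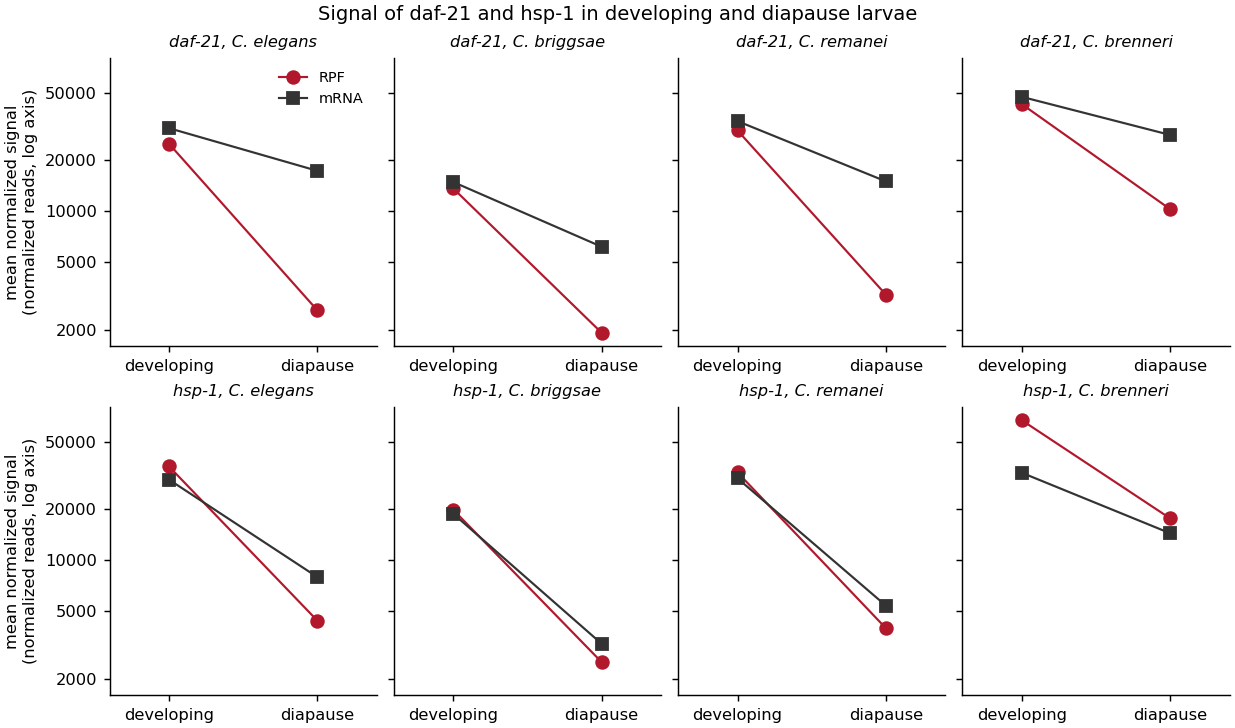
Mean signal of daf-21 (top) and hsp-1 (bottom) in developing and diapause larvae of 4 species, in normalized reads on a log axis, with RPF as red circles and mRNA as dark squares, each point the mean of 3 libraries. The RPF line of daf-21 is steeper than its mRNA line in every species, with 24984 in developing and 2597 in diapause larvae of C. elegans, while the 2 lines of hsp-1 run closer together.

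The 2 chaperones can be set against each other by their changes, because the difference between 2 changes in the same table does not depend on how that table was scaled or on length. The RPF change of daf-21 less that of hsp-1 was 0.24 in C. elegans and -0.16 in C. briggsae, with 0.16 in C. remanei and 0.14 in C. brenneri. Their footprints thus differed in change by at most 0.24 on the log2 scale, with no one direction over the species. The mRNA change of daf-21 less that of hsp-1 was -1.07 in C. elegans and -1.28 in C. briggsae, with -1.32 in C. remanei and -0.44 in C. brenneri. It was negative in 4 of 4 species. The gap was smallest in C. brenneri, where both genes also had their smallest mRNA changes.

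Translation efficiency (TE) is the RPF abundance relative to the mRNA abundance of a transcript, so the TE change is the RPF log2 change less the mRNA log2 change and is not independent of either. The TE change of daf-21 was 2.43 in C. elegans and 1.56 in C. briggsae, with 2.04 in C. remanei and 1.31 in C. brenneri. For hsp-1 it was 1.11 in C. elegans and 0.44 in C. briggsae, with 0.56 in C. remanei and 0.74 in C. brenneri. For daf-21 TE was past 2-fold in 4 of 4 species and for hsp-1 in 1 of 4, C. elegans. The share of well-expressed transcripts past 2-fold in TE was 5.57% in C. elegans and 12.5% in C. briggsae, with 6.63% in C. remanei and 4.78% in C. brenneri. daf-21 exceeded the TE change of hsp-1 by 1.32 in C. elegans and 1.12 in C. briggsae, by 1.48 in C. remanei and by 0.57 in C. brenneri.

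For each gene the RPF change can be written as a sum of its TE and mRNA changes. TE made up 74.4% of the RPF log2 change of daf-21 in C. elegans and 55.2% in C. briggsae, with 63.3% in C. remanei and 63.7% in C. brenneri. For hsp-1 the TE part was 36.8% in C. elegans and 14.6% in C. briggsae, with 18.3% in C. remanei and 38.4% in C. brenneri. TE was thus the larger part for daf-21, and mRNA for hsp-1, in every species. Among all well-expressed transcripts, the TE change of daf-21 stood above 98.8% in C. elegans and 92.8% in C. briggsae, with 97.9% in C. remanei and 97.1% in C. brenneri, and that of hsp-1 above 95.3%, 75.2%, 85.4% and 91.9% in the same order of species. With the share of summed signal in place of the deposited scaling, the TE change of daf-21 in C. brenneri was 0.97 and that of hsp-1 was 0.81 in C. elegans and 1.04 in C. remanei, so that these 3 values crossed the 2-fold limit. The differences between the genes do not move with the scaling.

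**Figure D2:**
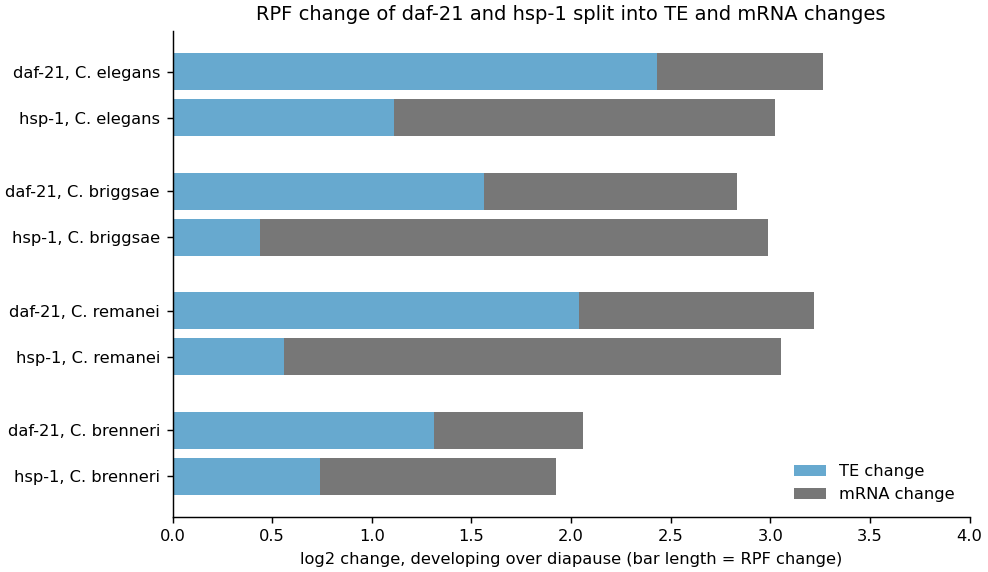
RPF log2 change (developing over diapause) of daf-21 and hsp-1 in each species, drawn as the sum of the TE change (blue) and the mRNA change (grey), from the means of 3 libraries per state. Bars of the 2 genes are about as long within a species, and the blue part of daf-21 is the longer one in each, for example 2.43 for daf-21 and 1.11 for hsp-1 in C. elegans.

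Ranks show where the transcripts stood in each state. Among all coding sequences by RPF signal, without correction for length, daf-21 ranked 34 in developing and 438 in diapause larvae of C. elegans. It ranked 33 in developing and 201 in diapause larvae of C. briggsae, 9 and 156 in those of C. remanei, and 20 and 89 in those of C. brenneri. hsp-1 was rank 7 in developing and 195 in diapause larvae of C. elegans, 14 and 122 in those of C. briggsae, 7 and 111 in those of C. remanei, and 7 and 28 in those of C. brenneri. By mRNA signal, daf-21 was at rank 70 in developing and 97 in diapause larvae of C. elegans, 110 and 222 in those of C. briggsae, 58 and 101 in those of C. remanei, and 32 and 46 in those of C. brenneri. The mRNA of hsp-1 ranked 72 in developing and 236 in diapause larvae of C. elegans, 86 and 424 in those of C. briggsae, 69 and 245 in those of C. remanei, and 72 and 132 in those of C. brenneri. Within each species, the mRNA of hsp-1 was thus further apart in rank between the states than that of daf-21.

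As shares of all footprint signal, daf-21 held 0.264% in developing and 0.0373% in diapause larvae of C. elegans, and hsp-1 held 0.378% in developing and 0.0631% in diapause larvae. In C. brenneri daf-21 held 0.300% in developing and 0.103% in diapause larvae, and hsp-1 held 0.469% and 0.177%. The C. briggsae and C. remanei shares rest on a few coding sequences. In those tables the 3 coding sequences with the most signal held 42.9% of RPF signal in developing and 65.5% in diapause larvae of C. briggsae, and 66.0% and 80.1% in those of C. remanei. hsp-1 held 0.226% of C. briggsae RPF signal in developing larvae with them and 0.395% without them.

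To place the footprints per mRNA among other transcripts, the share of RPF signal was divided by the share of mRNA signal of the same coding sequence and state, a ratio in which length cancels. In C. elegans the ratio of daf-21 was 1.27 in developing and 0.291 in diapause larvae. In diapause only 3.05% of well-expressed C. elegans transcripts had a lower ratio, against 72.4% in developing larvae. The share with a lower ratio than daf-21 was 91.7% in developing and 24.9% in diapause larvae of C. briggsae, 86.8% and 8.26% in those of C. remanei, and 50.6% and 10.1% in those of C. brenneri. Relative to all well-expressed transcripts, the ratio of daf-21 was thus below the middle in diapause larvae of every species and higher in rank in developing larvae. Its place in developing larvae depends on the transcripts it is set against: with a signal limit of 500 in place of 50, 50.7% of C. elegans and 38.6% of C. brenneri transcripts had a lower ratio in developing larvae.

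The ratio of hsp-1 was 1.88 in developing and 1.07 in diapause larvae of C. elegans, with 94.4% of transcripts below it in developing and 42.8% in diapause larvae. In C. briggsae 95.8% were below it in developing and 75.8% in diapause larvae. For C. remanei the shares were 94.7% in developing and 67.7% in diapause larvae, and C. brenneri had 97.3% and 75.4%. hsp-1 was thus among the transcripts with the most footprints per mRNA in developing larvae of all 4 species, and outside C. elegans it stayed in the upper part in diapause.

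Abundant mRNAs of diapause larvae often had low ratios themselves. Of the 100 transcripts with the highest mRNA signal in diapause, 57 had a lower diapause ratio than daf-21 in C. elegans and 92 in C. briggsae, with 76 in C. remanei and 67 in C. brenneri. For hsp-1 the numbers were 75, 94, 91 and 92. Set against these abundant transcripts alone, daf-21 was near or above their middle. daf-21 itself was one of the 100 in C. elegans and C. brenneri, and hsp-1 in none of the 4 species.

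**Figure D3:**
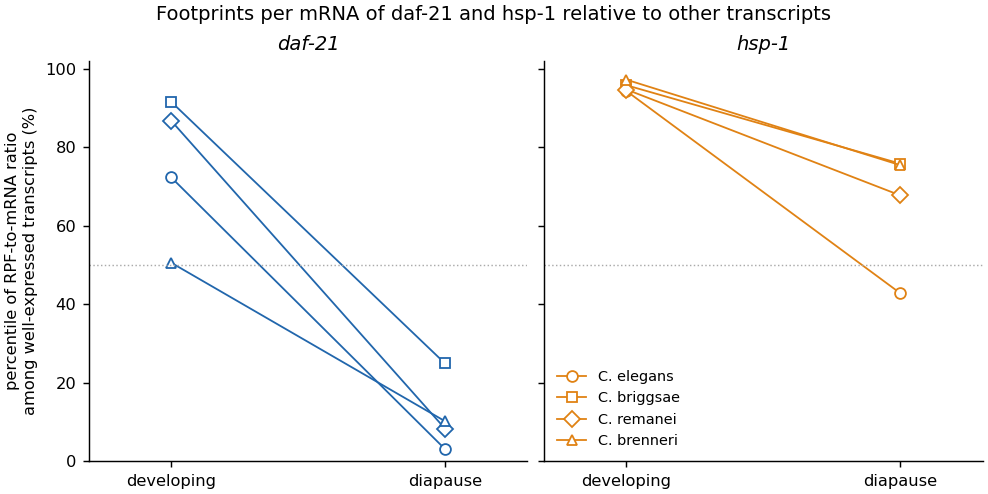
Percent of well-expressed transcripts with a lower RPF-to-mRNA ratio than daf-21 (left) and hsp-1 (right) in developing and diapause larvae, 1 line per species, from the means of 3 libraries; the dotted line marks the middle transcript. The diapause values of daf-21 lie between 3.05% and 24.9%, and those of hsp-1 between 42.8% and 75.8%.

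Other chaperones were read from lists that the study had itself chosen on these libraries, so their direction is no independent evidence. Of its 36 C. elegans identifiers for unfolded protein binding, a list that holds daf-21 and not hsp-1, 35 were well expressed. The study listed only identifiers with higher RPF levels in developing larvae, so high RPF and TE changes follow in part from that choice. Among the 35, 29 were more than 2-fold higher in RPF and 16 in mRNA, beside 19.6% and 14.3% of all well-expressed C. elegans transcripts. The median changes of the list were 1.75 in RPF and 0.96 in mRNA, against medians of 0.01 and 0.04 over all well-expressed transcripts. No member of the list exceeded daf-21 in RPF or TE change, while 25 exceeded it in mRNA change. Against hsp-1, none of them was higher in mRNA change, 1 in RPF change, daf-21 itself, and 11 in TE change. The median TE change of the list was 0.59, with daf-21 at its upper end.

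DnaJ co-chaperones start the ATP cycle of HSP70. Of 25 identifiers that the study listed for them, again only ones with higher RPF levels in developing larvae, 21 were well expressed. RPF changes were past 2-fold for 15 of them and mRNA changes for 12, beside 19.6% and 14.3% of all well-expressed C. elegans transcripts, with medians of 1.59 in RPF and 1.13 in mRNA. Their TE was higher in developing larvae for 18 of the 21, where the median TE change of all well-expressed transcripts was -0.06. It was past 2-fold for 1 of the 21, beside 5.57% of all well-expressed transcripts, so no excess is read from that count. In TE change, 1 of them exceeded hsp-1 and none exceeded daf-21.

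The HSP70 relatives of other compartments were set beside hsp-1. hsp-3, an HSP70 of the endoplasmic reticulum (ER), had an RPF change of 2.18 and an mRNA change of 1.57 in C. elegans. The pair of changes was 3.28 in RPF and 2.91 in mRNA for C. briggsae, 2.73 and 2.33 for C. remanei, and 1.97 and 1.59 for C. brenneri. Its TE change lay between 0.37 and 0.61, below that of hsp-1 in each species. hsp-4, the ER HSP70 that is induced by unfolded proteins, had TE changes of -0.07 in C. elegans and -0.12 in C. briggsae, with -0.09 in C. remanei, and the C. briggsae and C. remanei values were 0.059 and 0.40 with the share of summed signal. hsp-6, the HSP70 of mitochondria, had TE changes of 1.37 in C. elegans and 1.01 in C. briggsae, with 1.12 in C. remanei and 0.83 in C. brenneri, each above that of hsp-1 and below that of daf-21. hsp-60, the mitochondrial chaperonin, had TE changes of 0.83, 3.41, 0.77 and 0.92 in the same order. The C. briggsae value of hsp-60 stands apart through its mRNA, which had a change of -0.55 there and positive changes in the other species.

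The genes crt-1, pdi-2 and Y65B4BR.5, which lie outside the HSP70 family, were read in C. elegans alone. crt-1, which encodes the ER chaperone calreticulin, had a TE change of 1.28 in C. elegans, and pdi-2, a protein disulfide isomerase, 0.66. Y65B4BR.5, which encodes the alpha subunit of the complex that binds nascent chains at the ribosome, came closest to daf-21, with an RPF change of 3.00, an mRNA change of 0.49 and a TE change of 2.51 in C. elegans.

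Heat-inducible and small heat-shock genes had lower TE in developing larvae in each species where they were listed, unlike daf-21 and hsp-1. The coding sequence shared by F44E5.4 and F44E5.5, heat-inducible HSP70 genes, had an RPF change of -0.72 and an mRNA change of 0.42. Its counterpart for the small heat-shock genes hsp-16.48 and hsp-16.49 had changes of -0.32 in RPF and 0.57 in mRNA. The authors removed reads with more than 1 genomic mapping, and the signal left for such a shared identifier cannot be assigned to 1 gene. hsp-12.6, a small heat-shock gene, had an RPF signal of 3.99 in developing and 231 in diapause larvae of C. elegans. Its RPF change was -5.86 there, -5.67 in C. briggsae and -3.65 in C. remanei, with -2.54 in C. brenneri, where it was not well expressed. hsp-12.3 and hsp-43 also had negative RPF changes in all 4 species. hsp-17 had positive ones, with 2.61 in RPF and 3.26 in mRNA in C. elegans. In C. elegans the TE was higher in developing larvae for 0 of 5 small heat-shock coding sequences. The median TE change of all well-expressed C. elegans transcripts was itself -0.06, and hsp-43, at -0.19, lay nearest to it.

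**Figure D4:**
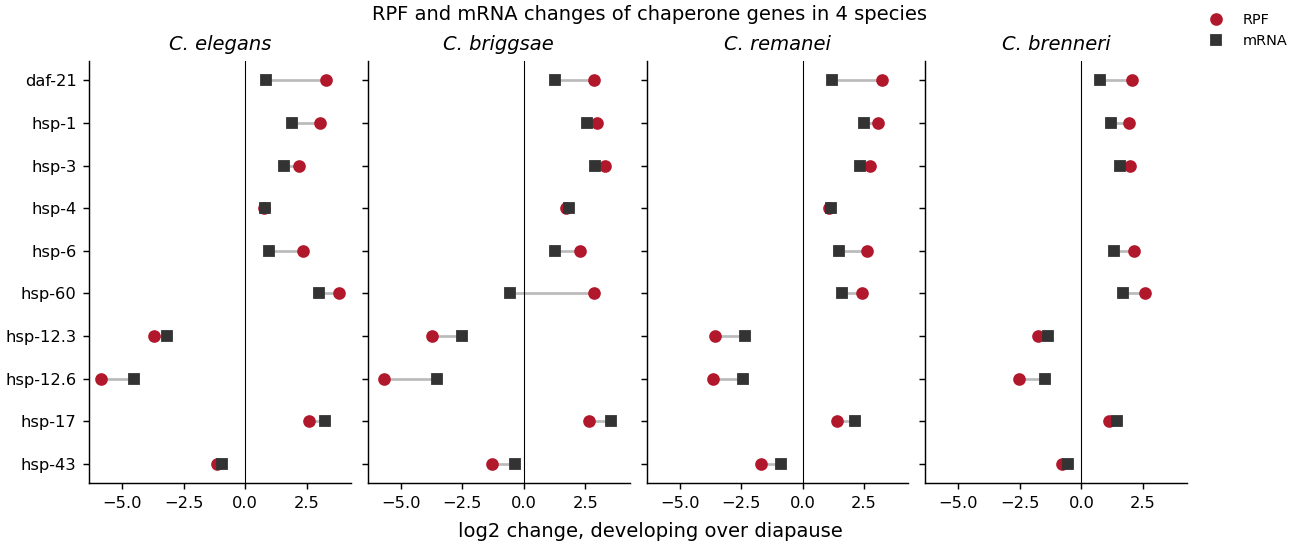
RPF (red circles) and mRNA (dark squares) log2 changes, developing over diapause, of 10 chaperone genes in 4 species, from the means of 3 libraries per state; a grey line joins the values of 1 gene, and hsp-4 has no C. brenneri value. daf-21 has a long line to the right in every species and hsp-1 a shorter one, while hsp-12.3, hsp-12.6 and hsp-43 lie left of 0, for example hsp-12.6 at -5.86 in RPF and -4.52 in mRNA in C. elegans.

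The transcripts most like each chaperone were sought by the distance between their pairs of RPF and mRNA changes in C. elegans, over 12114 other well-expressed transcripts, of which 268 could be named. The 5 nearest named transcripts to daf-21 were rpl-20, rpl-19, rpl-12, rps-1 and rpl-36, all of them genes of ribosomal proteins. Their distances lay between 0.12 and 0.22 on the log2 scale. With unnamed transcripts counted too, 2 lay nearer to daf-21 than rpl-20 and 11 nearer than rpl-36. rpl-20 had an RPF change of 3.38 and an mRNA change of 0.86, beside 3.27 and 0.84 for daf-21. Of the 269 named transcripts, daf-21 and hsp-1 included, 46 were ribosomal protein genes, and their names come from a list that the study chose on these libraries.

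hsp-1 had 1 close named transcript, imb-3, which encodes an importin beta protein of nuclear import, with an RPF change of 3.12, an mRNA change of 1.97 and a distance of 0.12. The next, rps-25, lay at 0.55, with 142 transcripts nearer to hsp-1 than it. The others were eft-3/eft-4, which encode translation elongation factor 1 alpha, W01D2.1 and rps-26. With likeness taken instead over the TE change and the diapause share of RPF signal, the 5 nearest to daf-21 were again ribosomal protein genes, 3 of them the same, and those of hsp-1 were none of the same, namely let-75, crt-1, isp-1, asp-1 and pdi-2.

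The 46 ribosomal protein genes on the study's list of high weights in RPF data can be set beside daf-21. Those weights reflect high footprint signal in developing larvae, so the large RPF and TE changes of these genes follow in part from the choice. All 46 of them had a higher RPF change and a higher TE change than hsp-1, and none had a higher mRNA change than hsp-1. Compared with daf-21, 41 of the 46 had a higher RPF change, 37 a higher mRNA change and 29 a higher TE change. The whole list they come from held 70 transcripts, daf-21 and hsp-1 among them. Of these 70, 34 had a higher TE change than daf-21 and 67 a higher one than hsp-1. daf-21 was thus near the middle of that list in TE and hsp-1 near its low end.

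**Figure D5:**
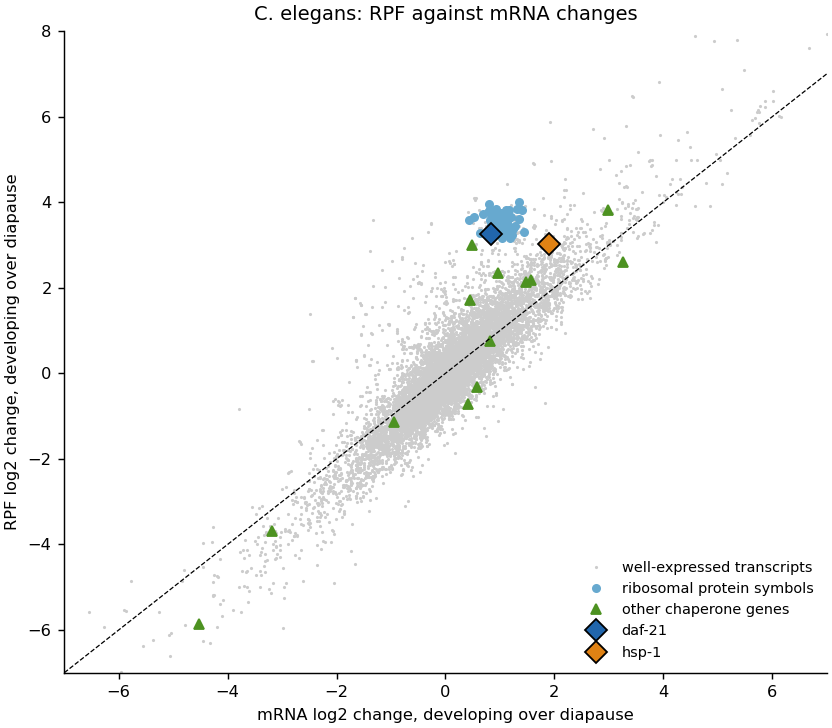
RPF against mRNA log2 changes (developing over diapause) of C. elegans well-expressed transcripts (grey), 46 ribosomal protein genes (light blue circles), 13 other chaperone coding sequences (green triangles), daf-21 (dark blue diamond) and hsp-1 (orange diamond), from the means of 3 libraries per state; on the dashed line both changes are equal, and transcripts beyond the axes are not drawn. daf-21, at 3.27 in RPF and 0.84 in mRNA, lies at the lower edge of the ribosomal protein genes, and hsp-1, at 3.02 and 1.91, lies to their right.

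Over the 8 changes of 4 species and 2 assays, likeness was computed against the 18 other genes of the curated list that had values in all 4 species. hsp-1 was nearest to hsp-3, at a distance of 1.16, then to daf-21 at 2.20 and hsp-6 at 2.21. daf-21 was nearest to hsp-6, at 1.42, then to hsp-1 at 2.20 and hsp-3 at 2.63. Within this list, the nearest gene of each chaperone was thus an HSP70 of another compartment, and not the other cytosolic chaperone. The study curated the list for conserved regulation and it holds many heat-shock genes, so a chaperone as nearest gene follows in part from its make-up. No other coding sequence had all 4 means within 5% of those of either gene in any species, as near-duplicates would.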

How the data were processed

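Means of ribosome profiling and mRNA-seq libraries of developing and diapause L1 larvae were compared within each of 4 species, grouped by the state in the labels. Per the study's methods, adaptors were trimmed by the authors, who aligned the reads by Bowtie 0.12.7 to genomes (WS230) and coding sequences and compared the states with DESeq. Reads with more than 1 genomic mapping were removed before counting. The signal columns the authors deposited, 1 per state in each of 8 tables, hold read numbers divided by size factors and averaged over 3 libraries, without division by length. The tables were normalized separately, so levels were not compared across them. Columns of the authors' fold changes, log2 fold changes, p-values, adjusted p-values and residual variances were not used. The count test considered in the design was not run, because the tables hold no counts of single libraries.

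Which column is which state was read from the study's complete C. elegans lists of regulated identifiers, checked on the C. elegans RPF means alone. Of those listed as higher in developing larvae, 814 of 814 had the higher mean in the second column. Of those listed as higher in diapause, 161 of 161 had it in the first. The other species and assays were read in the same column order, under which the changes printed in the curated list matched in sign and size. Rows of the other species were found from the pairs of changes that the curated list prints, and 98 of 98 listed rows matched exactly 1 identifier. Names of C. elegans identifiers came from the study's lists, which named 308; 0 matched the reference name tables. Named genes were both members, the listed chaperones, and the 5 nearest named transcripts to each member in C. elegans and the 3 nearest over 4 species. Members and lists were chosen with earlier results of these data known.

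Computations used Python 3.11.15, pandas 2.3.3 and numpy 2.4.6, with plots by matplotlib 3.10.9. Only the computation of the log2 change was tested on simulated data. Alternatives were scaling by summed signal, centring on the median transcript, a pseudocount of 5, signal limits of 10 and 500, fold limits of 1.5 and 4, other denominators of the shares and another measure of likeness. No sequence was used.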

Additional observations from a re-analysis of the deposited data

How the results depend on the processing

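No paired analysis was possible because each deposited value is already an average of the 3 libraries, and for the same reason no replicate could be left out; the spread between batches could not be computed, so values near a limit are uncertain. Centring on the median transcript or a pseudocount of 5 left all 16 changes and 8 TE changes of daf-21 and hsp-1 on their side of the 2-fold limit. Scaling by summed signal shifted changes by between -0.52 and 0.16 on the log2 scale. It moved the C. remanei mRNA change of daf-21 to 0.85 (1.18 as deposited), the C. brenneri TE change of daf-21 to 0.97 (1.31), and the TE change of hsp-1 to 0.81 in C. elegans (1.11) and 1.04 in C. remanei (0.56). It turned the TE change of hsp-4 to 0.059 in C. briggsae (-0.12) and 0.40 in C. remanei (-0.09). Without the 3 largest coding sequences, the RPF share of daf-21 was 0.271% in developing and 0.0586% in diapause larvae of C. briggsae (0.155% and 0.0203% with them) and 0.442% and 0.0728% in those of C. remanei (0.150% and 0.0145%). That of hsp-1 was 0.395% and 0.0767% in C. briggsae (0.226% and 0.0265%) and 0.487% and 0.0899% in C. remanei (0.166% and 0.0179%). Leaving out ribosomal protein genes moved none of the 8 C. elegans shares past 1.5 times. With a signal limit of 500, chosen for the ratio after seeing the data, 5.28% of C. elegans transcripts had a lower diapause ratio than daf-21 (3.05% at a limit of 50). The other 39 of 40 percentiles stayed within 1.5 times, a bound that a high percentile can hardly cross. Within it, the C. brenneri developing ratio of daf-21 moved below the middle, to 38.6% (50.6%). The TE percentile of hsp-1 fell to 57.9% in C. briggsae (75.2%) and 73.6% in C. remanei (85.4%). Its C. elegans diapause ratio percentile fell to 29.0% (42.8%). The background shares fell to between 1.00% and 9.03% at a fold limit of 4 and reached up to 47.2% in C. briggsae RPF at a signal limit of 500.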
